A study of Homo sapiens with 6 samples.

Results

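The interferon-induced genes IFIT1, IFIT2, IFIT3, IFIT5, IFITM1, IFITM2, IFITM3, IFI6, IFI27 and IFI44 were followed in a human melanoma line, A375, with and without knockdown of UBE2S. They were found as the probe sets whose only annotated gene symbol is one of these names, which gave 10 genes and 20 probe sets out of 18132 genes and 44988 probe sets with 1 symbol. The names were chosen with the difference between knockdown and control arrays already known. That difference is therefore described for the 10 genes without a test and supports nothing by itself.

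UBE2S knockdown cells (3 arrays) were A375 cells given a short hairpin RNA against UBE2S by lentivirus, and control A375 cells (3 arrays) were set against them. UBE2S encodes an E2 enzyme that lengthens ubiquitin chains on targets of the anaphase-promoting complex. The sources used here do not give what the control cells received, the number and sequence of hairpins or the time after delivery. The labels call the replicates biological, and total RNA of each was hybridized to 1 Affymetrix array.

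Values are log2 expression as deposited. Every probe set has a median of 0 over the 6 arrays, and such values show how arrays differ but hold no level. The median of 6 values lies midway between the 3rd and the 4th, so these 2 arrays of any probe set mirror each other around 0. For genes with several probe sets, the mean of the probe sets was used. Changes are knockdown minus control on the log2 scale, with the moderated standard error (SE) of limma. A gene counted as called when its adjusted p was under 0.05 in the limma fit over all genes. These are bulk samples, so fewer cells that express a gene and less RNA per cell cannot be told apart.

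UBE2S was lower in every knockdown array (-1.13, -1.05 and -1.01) than in every control array (1.06, 1.01 and 1.01), a change of -2.09 (SE 0.04) that left 23.5% of the control signal. The 6 arrays had SDs between 0.174 and 0.183 over all probe sets. Hybridization spike-in controls were 0.17 higher and poly-A spike-in controls 0.098 higher in knockdown arrays, both without overlap. Knockdown arrays also had a larger gap between 3' and 5' control probe sets of ACTB, by 0.19 and with no overlap, while for GAPDH the gap differed by 0.023 and the groups overlapped. The part of these shifts in the changes below was not tested. The median change of all genes was -0.0038, and it was -0.17 with arrays centred on the hybridization controls and -0.10 with the poly-A controls, so changes here are relative to that of most genes. The list of leukocyte markers also held HBB, a globin of red blood cells. Its 13 measured genes averaged between 0.003 and 0.029 in knockdown arrays and between -0.038 and -0.022 in control arrays. Of the 13, 1 was called higher, HBB (0.41, SE 0.07), and none of the leukocyte genes was called. Markers of the melanocyte lineage averaged between 0.056 and 0.094 in knockdown arrays and between -0.10 and -0.05 in control arrays. Of 9 measured, 4 were called higher, led by S100B (1.09), and 1 lower, MITF (-0.72), where 21.4% of all genes were called higher and 18.6% lower. The values hold no level, so the labelled cell type could be checked only by a coarse signal class, described with the probe sets below. The brightest probe set was in the high class for 4 of the 9 melanocyte markers (SOX10, PAX3, ERBB3 and S100B), in the middle class for 4 and in the low class for TYRP1. Of the 13 genes in the leukocyte list, HBB included, 0 were in the high class, 8 in the middle class and 5 in the low class.

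Interferons bind receptors on the cell surface and act through Janus kinases, STAT proteins and IRF9, which form the factor ISGF3. ISGF3 binds interferon-stimulated response elements in the promoters of antiviral genes. IFIT proteins bind viral or incompletely capped RNA and hold back its translation. IFITM proteins are small membrane proteins that hinder fusion of enveloped viruses with the cell membrane or with endosomes. IFI6 and IFI27 are small hydrophobic proteins of the same family, and IFI44 is a cytoplasmic protein of the interferon response.

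The promoters are shown because the 10 genes are grouped by a shared response to interferon, a property of their regulatory sequence that the arrays did not measure. A table of RefSeq promoters (GRCh38.p14, 250 bases before to 50 after each annotated start) matched 8 of the 10 genes. IFIT2 and IFITM2 were not matched. Both strands were searched for GAAANNGAAA, the core of the interferon-stimulated response element, which reads TTTCNNTTTC when it lies on the strand opposite to the gene. The windows below run 5′ to 3′ on the gene strand, and capitals mark the matches.
IFIT1: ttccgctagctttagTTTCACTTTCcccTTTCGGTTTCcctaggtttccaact
IFIT3 (start 1): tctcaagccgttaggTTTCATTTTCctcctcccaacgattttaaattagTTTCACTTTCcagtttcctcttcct
IFIT3 (start 2): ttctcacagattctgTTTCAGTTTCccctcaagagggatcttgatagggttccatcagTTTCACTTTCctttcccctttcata
IFIT5: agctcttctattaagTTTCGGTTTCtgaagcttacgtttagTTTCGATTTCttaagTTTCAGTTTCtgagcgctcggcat
IFITM1: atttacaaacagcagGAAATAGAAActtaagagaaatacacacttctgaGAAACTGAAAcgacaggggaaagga
IFITM3: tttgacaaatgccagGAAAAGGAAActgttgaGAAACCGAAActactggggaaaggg
IFI6: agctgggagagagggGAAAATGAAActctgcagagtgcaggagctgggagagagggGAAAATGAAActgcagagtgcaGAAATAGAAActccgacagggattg
IFI27: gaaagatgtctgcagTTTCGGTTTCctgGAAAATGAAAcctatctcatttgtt
IFI44: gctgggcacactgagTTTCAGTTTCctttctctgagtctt
The window of IFIT1 lies at chr10:89392492-89392544 (+), those of IFIT3 at chr10:89327826-89327899 (+) and chr10:89332420-89332502 (+), and that of IFIT5 at chr10:89414508-89414587 (+). IFITM1 is shown at chr11:313985-314058 (+) and IFITM3 at chr11:320871-320927 (-). IFI6 is shown at chr1:27672261-27672363 (-), IFI44 at chr1:78649756-78649795 (+) and IFI27 at chr14:94110613-94110665 (+).

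All 8 genes had at least 1 match, against 599 of 14425 genes on the array with a promoter in the table (4.15%). At least 2 matches at a start were found in 7 of the 8, all but IFI44, against 52 of the 14425 genes (0.36%). IFIT1 carried its matches at -116 to -107 and -103 to -94 from the start. IFIT5 had 3 matches, with the first base at -45, -19 and -4, and both IFIT5 and IFITM1 had 1 match that spans the start. IFI6 had 3 matches, and its first 2 spelled the same 10 bases. The 2 annotated starts of IFI27 share the same pair of matches, 1 on each strand, whereas those of IFIT3 carry different pairs. A match is a description of these letters and shows no binding.

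**Figure D1:**
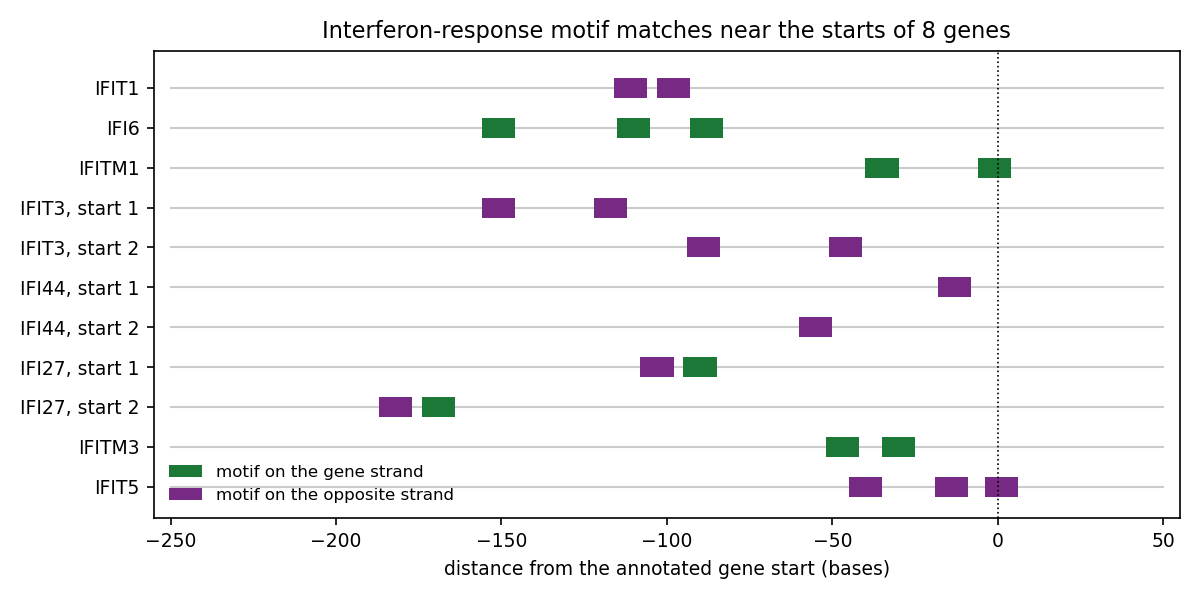
Positions of the matches to GAAANNGAAA on either strand (boxes) along 250 bases before and 50 after each annotated start (dotted line) for the 8 genes with a promoter in the table, with 2 starts for IFIT3, IFI44 and IFI27. Genes run from the largest to the smallest change; matches on the gene strand are green and those on the opposite strand purple.

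Of the 10 genes, 9 were higher in knockdown cells and IFIT2 was not. IFIT1 (14.8-fold), IFI6 (8.26-fold) and IFITM1 (5.46-fold) had the largest differences, and they ranked 1st, 3rd and 4th when all 18132 genes were ordered from the most raised to the most lowered. In the fit over all genes 9 members were called higher and 0 lower, where 21.4% of all genes were called higher and 18.6% lower, or 40.1% in either direction; nothing is read from this count, since the members were chosen on this comparison. The groups did not overlap for the same 9, all higher in knockdown arrays, where 26.2% of all genes showed this. Knockdown arrays were higher by at least 1 on the log2 scale for 5 members, where 0.529% of all genes were. The median change was 0.94 over the members and -0.0038 over all genes. Averaged over the 10 genes, knockdown arrays stood at 0.67, 0.68 and 0.68, against -0.68, -0.72 and -0.69 in control arrays.

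**Figure D2:**
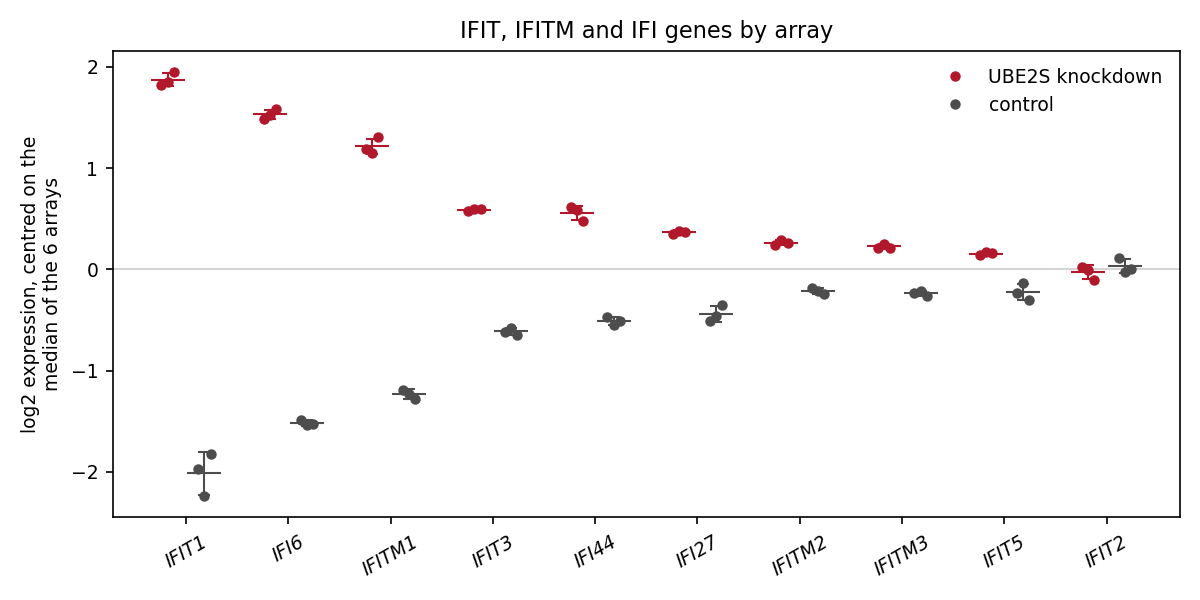
Centred log2 expression of each of the 10 genes (mean of its probe sets) in the 3 knockdown arrays (red) and the 3 control arrays (grey); points are arrays, horizontal lines means and bars SD. The groups lie apart for 9 genes and overlap for IFIT2.

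Among the IFIT genes, IFIT1, which binds RNA whose 5' end lacks the marks of the cell's own messenger RNA, stood at 1.82, 1.85 and 1.95 in knockdown arrays, against -1.98, -2.24 and -1.82 in control arrays. Its change of 3.89 (SE 0.10) was read by 1 probe set. The within-group SD of 0.157 exceeded the median of 0.0577 over all genes, with the control arrays spread wider than the knockdown arrays.
IFIT3, which binds IFIT1 and stabilizes it on RNA, stood at 0.58, 0.59 and 0.60 in knockdown arrays, against -0.62, -0.58 and -0.65 in control arrays. The change was 1.20 (SE 0.04), or 2.30-fold, a smaller difference than that of IFIT1 with both groups narrow. IFIT3 was read by 1 probe set of the _x_at kind, in which some probes match other transcripts too.
IFIT5, which acts without the other IFIT proteins and binds RNA with 5' phosphates, stood at 0.14, 0.17 and 0.16 in knockdown arrays, against -0.24, -0.14 and -0.30 in control arrays. All knockdown values lay above all control values, and the change was 0.38 (SE 0.05), or 1.30-fold. Its 2 probe sets gave 0.47 (SE 0.05) and 0.29 (SE 0.07).

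IFIT2, a partner of IFIT1 and IFIT3 in RNA-binding complexes, stood at 0.03, -0.004 and -0.11 in knockdown arrays, against 0.11, -0.03 and 0.008 in control arrays. The arrays of both groups were intermixed, and the change was -0.06 (SE 0.05). Its 2 probe sets, designed on different transcript records, gave 0.04 (SE 0.06) and -0.16 (SE 0.07), and neither was called. With the arrays centred on the hybridization controls IFIT2 was called lower (-0.23). IFIT2, IFIT3, IFIT1 and IFIT5 follow each other on chromosome 10 with IFIT1B between IFIT3 and IFIT1. IFIT2 lies at the end of this row beside IFIT3. In this row the groups overlapped for IFIT2 and IFIT1B but not for the other 3 genes.

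Of the IFITM genes, IFITM1, which acts mainly at the plasma membrane, stood at 1.18, 1.15 and 1.30 in knockdown arrays, against -1.19, -1.24 and -1.29 in control arrays. The groups lay far apart, with a change of 2.45 (SE 0.05), and its probe sets gave 2.61 and 2.29.
IFITM2 and IFITM3, which act mainly in endosomes, differed far less. IFITM2 stood at 0.24, 0.29 and 0.26 in knockdown arrays, against -0.18, -0.21 and -0.24 in control arrays, a change of 0.48 (SE 0.04). IFITM3 stood at 0.21, 0.25 and 0.21 in knockdown arrays, against -0.24, -0.21 and -0.26 in control arrays, a change of 0.46 (SE 0.04). The groups did not overlap for either gene, and both were about 1.4-fold higher (1.39-fold and 1.38-fold). All 3 probe sets of IFITM2 and IFITM3 are of the _x_at kind, in which some probes match other transcripts too, so the signals of these closely similar genes may be mixed. The 3 genes lie side by side on chromosome 11.

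IFI6, which limits apoptosis and the replication of flaviviruses, stood at 1.49, 1.52 and 1.58 in knockdown arrays, against -1.49, -1.54 and -1.53 in control arrays. The change was 3.05 (SE 0.04), read by 1 probe set, and the arrays of each group lay close together. IFI27, a relative of IFI6 found in mitochondria and at the nuclear envelope, stood at 0.35, 0.38 and 0.37 in knockdown arrays, against -0.51, -0.46 and -0.35 in control arrays, a change of 0.81 (SE 0.05). Its 2 probe sets differed: the one of the _x_at kind gave 1.27 (SE 0.10) and the one of the _s_at kind, shared between transcripts, gave 0.35 (SE 0.07). Both had all knockdown arrays above all control arrays.

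IFI44 stood at 0.61, 0.58 and 0.48 in knockdown arrays, against -0.47, -0.55 and -0.51 in control arrays, a change of 1.07 (SE 0.05). Its 6 probe sets fell into separate ranges. Of these, 4 gave between 1.25 and 1.62 with no overlap between groups. The other 2, designed on 1 shared transcript record, gave 0.26 (SE 0.11) and 0.25 (SE 0.14). In both of these the knockdown arrays ran high to low, at 0.38, 0.23 and -0.03 for the first and 0.46, 0.15 and -0.10 for the second, and overlapped the control arrays. Leaving out these 2 probe sets, an alternative chosen after seeing the data, gave IFI44 a change of 1.47.

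Of the 20 probe sets 16 were called higher and 0 lower in the fit over all probe sets, where 19.5% of all probe sets were called higher and 17.4% lower, or 36.9% in either direction. The groups did not overlap for the same 16, where 25% of all probe sets were higher without overlap. The 4 that were not called were those of IFIT2 and the pair of IFI44. Of the 20, 8 are of the _s_at or _x_at kind. The rounding of the values gives a coarse signal class before centring. The class is high for log2 values from 8 to 16, middle from 4 to 8 and low from 2 to 4. Where few arrays lie in a lower class, their values can happen to fall on the coarser step of the others. The class is then read too high. Otherwise the class describes the array with the lowest signal for that probe set, so other arrays may lie in a higher class. IFIT1 (change 3.89) and IFITM1 (change 2.45), in the middle class, may therefore lie in the high class in knockdown arrays. The rounding placed 5 member probe sets in the high class, those of IFI6, IFIT3, IFITM2 and IFITM3. It placed 14 in the middle class and 1, of IFI44, in the low class. Of 23 background probe sets on the array 13 were in the low class, so a middle class does not show that IFIT2 is detected.

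**Figure D3:**
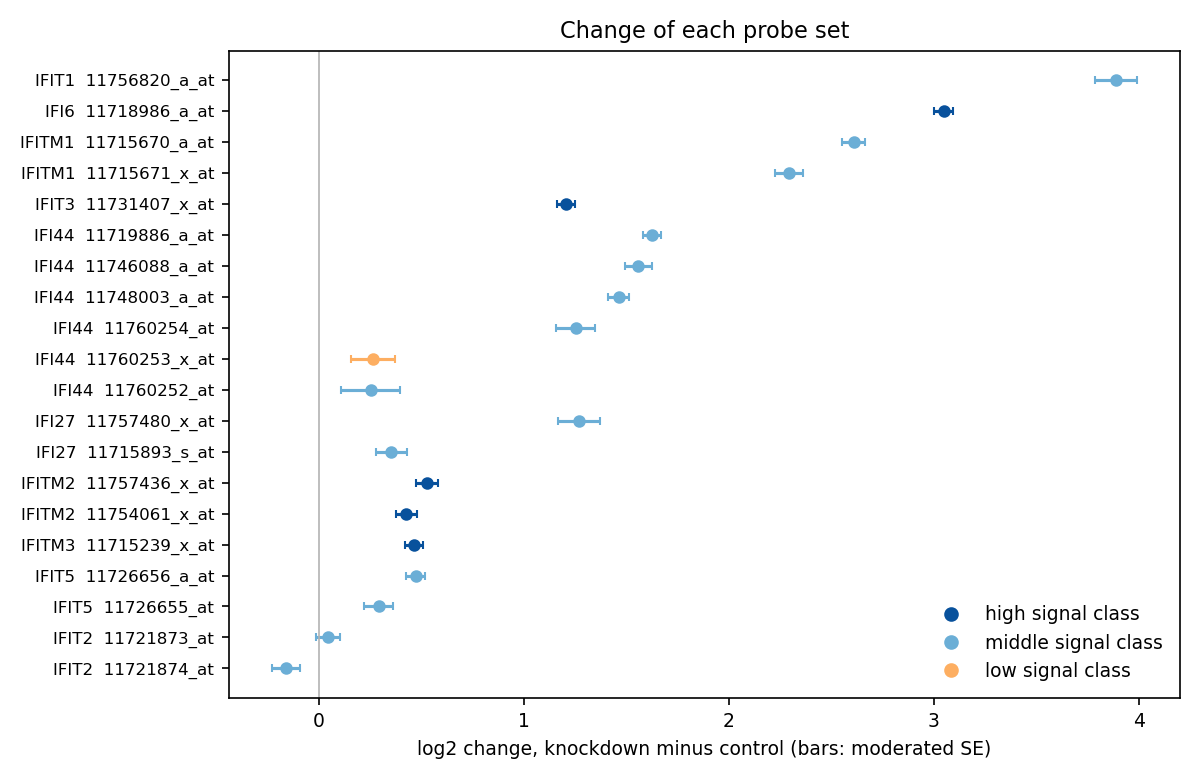
Log2 change (knockdown minus control) of each of the 20 probe sets with its moderated SE, grouped by gene from the largest to the smallest gene change and coloured by signal class. The probe sets of IFI44 and of IFI27 split into high and low values, and both of IFIT2 lie near 0.

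Ordered by change, the genes ran IFIT1, IFI6, IFITM1, IFIT3, IFI44, IFI27, IFITM2, IFITM3, IFIT5 and IFIT2. Neighbours in this order were compared by their difference within each array. IFIT3 exceeded IFI44 by 0.13 (SE 0.06) and IFITM2 exceeded IFITM3 by 0.01 (SE 0.02), and in both pairs the 2 groups of arrays overlapped, so the order within them is not beyond the spread. For the other 7 pairs the groups of arrays did not overlap, with differences from 0.08 (SE 0.03, IFITM3 over IFIT5) to 1.25 (IFITM1 over IFIT3). The order was set on these same arrays, so the sign of each difference was fixed in advance. The lack of overlap in these pairs therefore supports nothing by itself. The order also rests on the choice of probe sets. With the probe set of largest variance, IFI44 (1.62) and IFI27 (1.27) stood above IFIT3 (1.20), and IFIT5 (0.47) stood above IFITM3 (0.46). The genes whose profile over the 6 arrays lay closest to the mean profile of the members, by Euclidean distance, were ARL2BP (distance 0.065), PEX39 (0.094), TESC (0.094), ALG5 (0.11) and CPE (0.12). Their changes lay between 1.32 for ALG5 and 1.41 for ARL2BP. Changes near that of the mean profile follow from this choice and support nothing.

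Close relatives outside the 10 names were examined next. Of 6 measured paralogs, 4 were called higher and 0 lower, with a median of 0.64. Over all genes the shares called higher and lower were 21.4% and 18.6%. IFI44L, next to IFI44 on chromosome 1, stood at 0.49, 0.56 and 0.49 in knockdown arrays, against -0.51, -0.57 and -0.40 in control arrays, and rose by 1.01 (SE 0.05, adjusted p = 3.48e-06 in limma). Its 3 probe sets differed, at 1.35 (SE 0.19), 1.32 (SE 0.11) and, for the one of the low signal class, 0.36 (SE 0.09). IFITM10 rose by 0.88 (SE 0.10, adjusted p = 0.000171 in limma), read by 1 shared probe set. IFI27L2 and IFI27L1, which flank IFI27 on chromosome 14, rose by 0.69 (SE 0.05) and 0.59 (SE 0.05), with adjusted p-values of 1.79e-05 and 3.64e-05 in limma. IFIT1B, within the IFIT cluster, stood at 0.06 (SE 0.05, adjusted p = 0.431 in limma). IFITM5, a gene of bone-forming cells beside the IFITM cluster, stood at 0.03 (SE 0.04, adjusted p = 0.604 in limma). IFIT1B and IFITM5 were each read by 1 probe set of the low signal class, and IFITM5 was called lower (-0.14) with hybridization spike-in centring. Of 5 paralogs with a promoter in the table, 1 had a match to GAAANNGAAA, IFI44L, and IFI27L1, IFI27L2, IFIT1B and IFITM5 had none in this window.

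Genes beside the members on the chromosomes were called in both directions. Of the 3 nearest protein-coding genes on each side of each locus and those inside it, 30 were measured, of which 10 (33.3%) were called higher and 3 (10%) lower. Of all genes, 21.4% were called higher and 18.6% lower. Of the 10, 3 are the paralogs IFI44L, IFI27L1 and IFI27L2. ADGRL4, an adhesion receptor of endothelial cells beside IFI44, rose by 1.04 (SE 0.05), and LIPA, the lysosomal acid lipase whose annotated span covers IFIT2, IFIT3 and IFIT1, rose by 0.48 (SE 0.05). OTUB2 (0.35), B4GALNT4 (0.35), STX12 (0.28), PPP4R4 (0.23) and ACTA2 (0.21) were also called higher. The call of ACTA2 was lost with probe sets of no _s_at or _x_at suffix (-0.04), the median of probe sets (0.07), hybridization (0.04) or poly-A (0.11) spike-in centring, and without knockdown replicate 2 (0.17), control replicate 1 (0.19) or control replicate 3 (0.17). PPP4R4 lost its call with the median of probe sets (0.11), hybridization (0.06) and poly-A (0.13) centring, and B4GALNT4 (0.18) and STX12 (0.12) lost theirs with hybridization centring. PANK1 (-0.50), WASF2 (-0.32) and KIF20B (-0.19) were called lower. FAS (-0.02) and CH25H (0.10), on one side of the IFIT genes, and PGGHG (0.01), near the IFITM genes, did not pass the test.

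Other genes of the pathway were taken from lists, chosen with earlier results of these data known. The counts in these lists stand beside 21.4% of all genes called higher and 18.6% called lower. Of 30 other interferon-stimulated effectors, 26 were called higher and 0 lower, with a median of 0.86, close to the 0.94 of the members. The GTPase MX1 rose by 3.77 (SE 0.06), the ubiquitin-like ISG15 by 2.20 (SE 0.08) and the virion tether BST2 by 1.56 (SE 0.06), with adjusted p-values between 2.94e-08 and 1.12e-06 in limma. MX2 (-0.10), OAS3 (-0.007), ISG20 (0.009) and TRIM22 (0.005) did not pass the test. Of 4 further genes with IFI in their name, 3 rose, IFI35 by 1.52 (SE 0.04), the DNA sensor IFI16 by 0.81 (SE 0.04) and the RNA sensor IFIH1 by 0.46 (SE 0.05). The 2 probe sets of IFIH1 went opposite ways, one of the middle class at 1.14 (SE 0.08) and one of the low class, with overlapping groups, at -0.21 (SE 0.11). The lysosomal reductase IFI30 stood at 0.005 (SE 0.04).

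Upstream of the members, interferon genes themselves showed 0 rises and 1 fall among 17 measured, with a median of 0.006. At an unadjusted p under 0.05, 1 was higher and 2 were lower. IFNB1, the interferon made by most infected cells, stood at 0.10, 0.07 and -0.03 in knockdown arrays, against 0.03, -0.10 and -0.16 in control arrays. The groups overlapped, and the change of 0.13 (SE 0.06, adjusted p = 0.127 in limma) passed the test without control replicate 1 (0.18, adjusted p = 0.0392 in limma). IFNL1 stood at -0.04 (SE 0.07), and IFNE, an interferon of epithelia, fell (-0.53, SE 0.07). Of the 17, 14 had no probe set above the low signal class, so a low level of these transcripts would not be seen.

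Of 9 receptors and Janus kinases, 6 were called higher and 1 lower, with a median of 0.19. IFNLR1, a chain of the receptor for lambda interferons, rose by 0.51 (SE 0.04), JAK1 by 0.38 (SE 0.04) and IL10RB, the partner chain of IFNLR1, by 0.31 (SE 0.03). IFNGR1, a chain of the receptor for gamma interferon, fell (-0.30, SE 0.04). IFNAR1 (0.006) and IFNAR2 (-0.02), the receptor of alpha and beta interferons, were not called. Centred on the hybridization controls, 3 of the 9 were higher and 3 lower.

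Among 7 measured STAT and IRF factors, 4 were called higher and 1 lower, with a median of 0.40. IRF9, the DNA-binding subunit of ISGF3, stood at 0.95, 0.98 and 1.11 in knockdown arrays, against -1.16, -0.97 and -0.93 in control arrays, and rose by 2.03 (SE 0.07). IRF7, which drives interferon genes after virus infection, rose by 1.51 (SE 0.08), and STAT3 by 0.43 (SE 0.04). IRF1 fell (-0.24, SE 0.04). Of 12 sensors and adaptors of foreign RNA and DNA, 5 were called higher and 2 lower, with a median of 0.02. RIGI, which senses RNA with 5' triphosphates, rose by 1.79 (SE 0.05), EIF2AK2, a kinase that senses double-stranded RNA, by 0.73 (SE 0.04) and DHX58, a regulator of RIGI, by 0.61 (SE 0.04). MAVS, the adaptor of RIGI and IFIH1, fell (-0.24, SE 0.04). ZBP1, a sensor of Z-form nucleic acids, fell narrowly (-0.14, SE 0.05, adjusted p = 0.0492 in limma), and this call was lost under 11 of 16 other settings. Of 5 measured brakes on interferon signalling, 0 rose and 1 fell, the phosphatase PTPN2 (-0.48, SE 0.05).

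**Figure D4:**
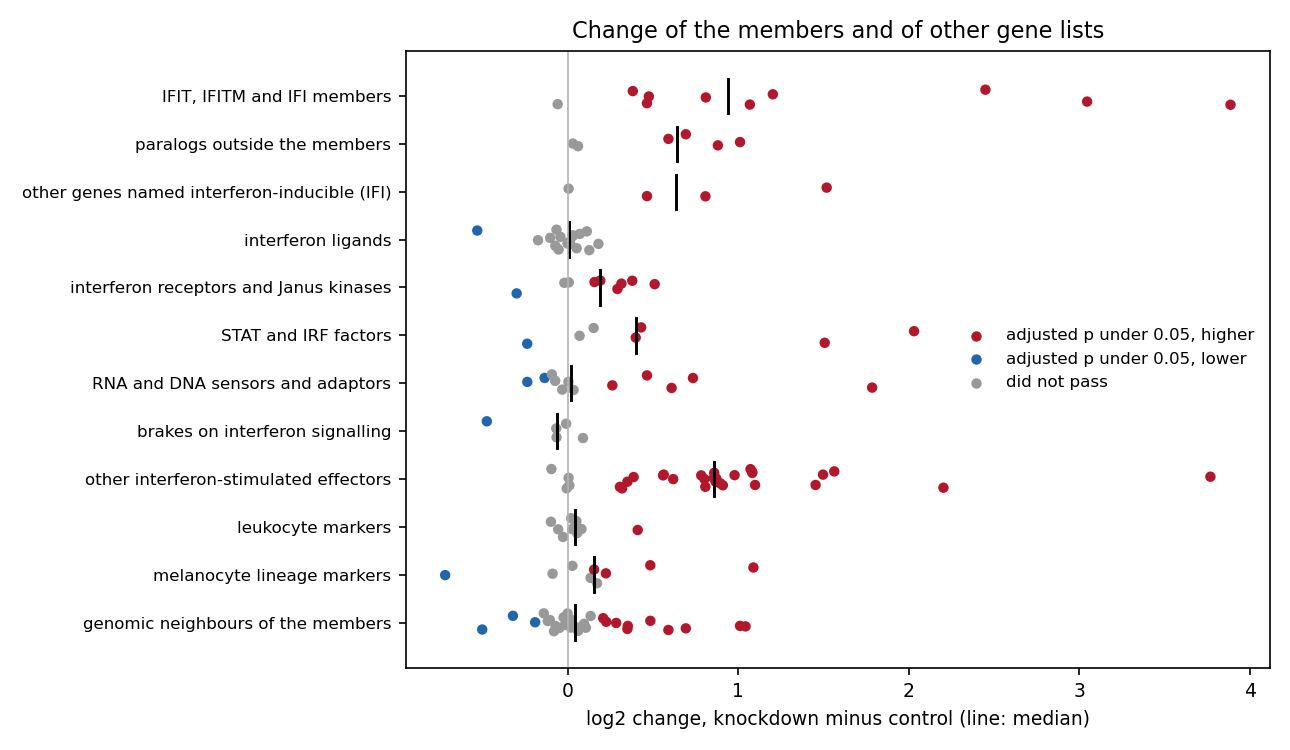
Log2 change (knockdown minus control) of each measured gene in the members and in 11 other lists; points are genes, coloured by the limma call over all genes, and black lines are medians. The members and the other interferon-stimulated effectors reach furthest to the right, with medians of 0.94 and 0.86, while the interferon genes lie around 0.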

How the data were processed

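The deposited table held log2 values of 49395 probe sets, 102 of them array controls, on 6 arrays. The tools named per the submitters' processing notes are RMA, affy and limma, without versions; the base of the logarithm is taken from RMA. The deposited log2 values had a median of 0 for each probe set (largest absolute median 4.85e-07), and no source used here describes that step. The array's annotation gave 1 symbol to 44988 probe sets, several to 1832 and none to 2473.

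The mean of the probe sets of each of 18132 genes, and each probe set, were fitted in R 4.3.3 with limma 3.58.1 (lmFit, then eBayes), with Benjamini-Hochberg adjustment over all genes or probe sets, two-sided. The fit was tested on simulated data. Arrays of a group shared at most 140 identical values. The number of arrays limits the precision, and signal over background is unknown. Signal classes rest on the single-precision step of the values and describe the array with the lowest signal for each probe set. They can be read too high where few arrays have the finer step. Same-numbered arrays were not paired, since their deviations correlated between -0.06 and -0.01.

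The members and all lists were chosen with earlier results of these data known. Named genes were UBE2S, the members, the paralogs, up to 3 called genes per direction and list, IFNB1, IFNL1, IRF9, called neighbours and the 5 closest profiles. Listed genes named without a call were chosen after their values were seen. Some listed genes are not reported here.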

Additional observations from a re-analysis of the deposited data

How the results depend on the processing

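The 9 members called higher were called under all 16 other settings (144 of 160 member values, the other 16 being those of IFIT2). Not every setting could alter every member: IFIT3, IFITM2, IFITM3 and IFI27 have only probe sets with the _s_at or _x_at suffix and kept them, members with 1 probe set stay the same under each choice of probe sets, and the median of probe sets differs from the mean only for IFI44. IFIT2 was called lower only with hybridization spike-in centring (-0.23), which put 1 member on the lower side. The members' median of 0.94 was 1.23 with the probe set of largest variance, 1.01 with probe sets without the _s_at or _x_at suffix for the genes that have any, with the median of probe sets and without 2 probe sets of IFI44 (a setting chosen after seeing the data), 0.77 with hybridization and 0.84 with poly-A spike-in centring, and 0.92 to 0.96 leaving out each array. Hybridization centring gave 1764 genes higher and 9196 lower (4786 and 20889 probe sets). In the lists it gave, on the lower side, 1 paralog (IFITM5, 0.03, turned to -0.14), 1 other IFI gene, 11 interferons, 3 receptors and kinases, 6 sensors, 3 brakes, 4 other effectors, 5 leukocyte markers, 2 melanocyte markers and 12 neighbours, and on the higher side 3 receptors and kinases, 2 melanocyte markers and 6 neighbours. Poly-A centring gave 2486 genes higher and 6297 lower, 14490 probe sets lower, and on the lower side 4 interferons, 4 sensors, 3 brakes, 1 other effector, 2 leukocyte markers and 8 neighbours. The largest-variance probe set gave 2 receptors and kinases lower and 2 leukocyte markers higher and 1 lower. It gave 1 sensor lower, as did probe sets without those suffixes, the median of probe sets, the robust variance model, array weights and the replicate block. Array weights called 1 interferon higher. Leaving out each array gave 0 to 1 interferons higher, 1 to 2 lower and 1 to 2 sensors lower. The call of the sensor ZBP1 was lost without any 1 array except control replicate 1. ACTA2 turned to -0.044 with probe sets without those suffixes. With the replicate number as a block 3615 genes were higher and 3069 lower, and no other list count or member call changed by over 1.5 times. Deviations of same-numbered arrays correlated between -0.06 and -0.01, and 0 of 3 knockdown arrays correlated best with their own number. For these differences the cause was not tested.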

Other observations

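The motif of the members was also looked up in the other genes on the array. Of 591 genes outside the members with a match to GAAANNGAAA in the promoter window, 146 were called higher (24.7%) and 105 lower (17.8%), with a median change of 0.008. Of 13826 genes with no match, 3027 were called higher (21.9%) and 2720 lower (19.7%), with a median of -0.004. Knockdown arrays were higher by at least 1 (log2) for 12 of the 591 (2.03%) and 59 of the 13826 (0.427%). Of 45 genes outside the members with at least 2 matches, 15 were called higher (33.3%), 7 lower, and 5 were higher by at least 1 (11.1%). Among the other interferon-stimulated effectors with a promoter in the table, 15 of 17 with a match and 8 of 8 without one were called higher, with medians of 0.91 and 0.80. No test of these shares was made.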
